A study of Mus musculus with 6 samples.

Results

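The genes described here are 9 members of the machinery that sets whether a macrophage engulfs a neighbouring cell and how strongly its surface receptors are restrained: Cd47, Sirpa, Lrp1, Siglec1, Siglece, Pirb, Lilrb4a, Trem2 and Tyrobp. They were picked by gene symbol from a table of 55023 genes, all 9 were found in it, and all 9 had enough reads to be tested. The cells were mouse macrophages derived from bone marrow, kept for 24 h with vehicle, LTα1β2 alone, or both LCL161 and LTα1β2, in 2 libraries per group. LTα1β2 is the lymphotoxin heterotrimer, whose receptor LTβR activates noncanonical NF-kB signalling. LCL161 mimics SMAC and antagonises cIAP1 and cIAP2, ubiquitin ligases that hold that pathway in check. Every library that received LCL161 also received LTα1β2, so LCL161 could be read only on top of the ligand. The sources used here do not give mouse strain, sex, age or doses, nor whether replicates were separate cultures or animals. The p-values therefore cover the spread between these libraries alone, and that spread may be technical.

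Macrophages weigh activating against inhibitory signals before they engulf a target. CD47 on the surface of most cells binds SIRPα on the phagocyte and restrains engulfment, whereas LRP1 recognises calreticulin on the target and promotes it. SIRPα, Siglec-E, PIR-B and LILRB4 carry ITIMs, short tyrosine motifs that recruit the phosphatases SHP-1 and SHP-2. TREM2 has no signalling motif of its own and works through the ITAM-bearing adaptor DAP12, the product of Tyrobp. Siglec-1 is a sialic acid-binding receptor of macrophages that lacks such an inhibitory motif.

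Total counts were 14718368 to 19049613 per library. Levels are given as CPM, counts scaled by library total and TMM factor (0.874 to 1.149), and changes on the log2 scale with an approximate SE. A gene is said to have risen or fallen where edgeR's quasi-likelihood test gave a Benjamini-Hochberg adjusted p under 0.05 over the 18812 genes tested. The 10 macrophage markers examined (Adgre1, Csf1r, Cd68 and others) were all detected, with a summed level of 27870 to 34497 CPM, led by Lyz2. RNA of stromal markers was also present: 13 of them summed to 12101 and 8480 CPM with vehicle, 3369 and 4694 CPM after LTα1β2 and 962 and 998 CPM with both agents. In each of the 3 comparisons 10 of the 12 stromal markers tested fell. Of all genes tested, 10.6% fell with LTα1β2 against vehicle, 15.1% with both agents against LTα1β2 and 21.1% with both agents against vehicle. The sum for neutrophils and their precursors, led by S100a8, was 390.0 and 551 CPM with vehicle, 769 and 608 CPM after LTα1β2 and 309 and 319 CPM with both agents. Of its 8 markers 4 rose with LTα1β2, beside 12.8% of all genes, and 5 fell when LCL161 was added, beside 15.1%. Only 1 rose without replicate 1 of vehicle or of LTα1β2 and 2 without replicate 2 of either, and 3 fell without LTα1β2 replicate 1. Their part in the members' changes was not tested. The sum for erythroid cells and megakaryocytes (Pf4 leading) was 419 and 477 CPM, 214 and 214 CPM and 258 and 247 CPM in the same order, and sums were at most 22.4 CPM for any of 6 other cell types. The T cell sum was 22.4 and 22.3 CPM with both agents, most of it Cd247, and at most 2.36 CPM in the other libraries.

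With LTα1β2 alone 4 members rose (Cd47, Pirb, Siglec1 and Lilrb4a) and none fell. Adding LCL161 raised Pirb, Lilrb4a and Cd47 further, raised Siglece, and lowered Lrp1 and Trem2. Against vehicle, both agents together left Pirb, Lilrb4a, Cd47, Sirpa and Siglec1 higher and Lrp1 and Trem2 lower. The stromal marker sum dropped at both steps. Of the 10 macrophage markers 7 rose and 1 fell with LTα1β2, beside 12.8% and 10.6% of all genes. When LCL161 was added 3 rose and 4 fell, beside 10.6% and 15.1%. With both agents against vehicle 4 rose and 2 fell, beside 18.4% and 21.1%. The part of the cell mixture in the rises of members and listed genes was not tested.

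For LTα1β2 against vehicle, the 4 of 9 members called stand beside 23.4% of all genes tested (12.8% higher and 10.6% lower). The libraries of the compared groups did not overlap for 7 of 9 members, beside 63.4% of all genes. For both agents against LTα1β2, 6 of 9 were called, beside 25.7% (10.6% higher and 15.1% lower), and 8 of 9 did not overlap, beside 67.8%. For both agents against vehicle, 7 of 9 were called, beside 39.5% (18.4% higher and 21.1% lower), and 9 of 9 did not overlap, beside 73.8%. The median log2 change of the 9 was 0.34, 0.32 and 0.46 in this order, and that of all genes -0.039, 0.0045 and 0.047. With a filter of at least 1 CPM in 2 libraries, the share of all genes called was 28.4%, 29.8% and 45% in the same order. The members were chosen with earlier results of these data known, so their counts beside these shares are description only. The comparisons share libraries and are not separate evidence. In these bulk samples fewer cells of a type and less RNA per cell cannot be told apart.

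**Figure D1:**
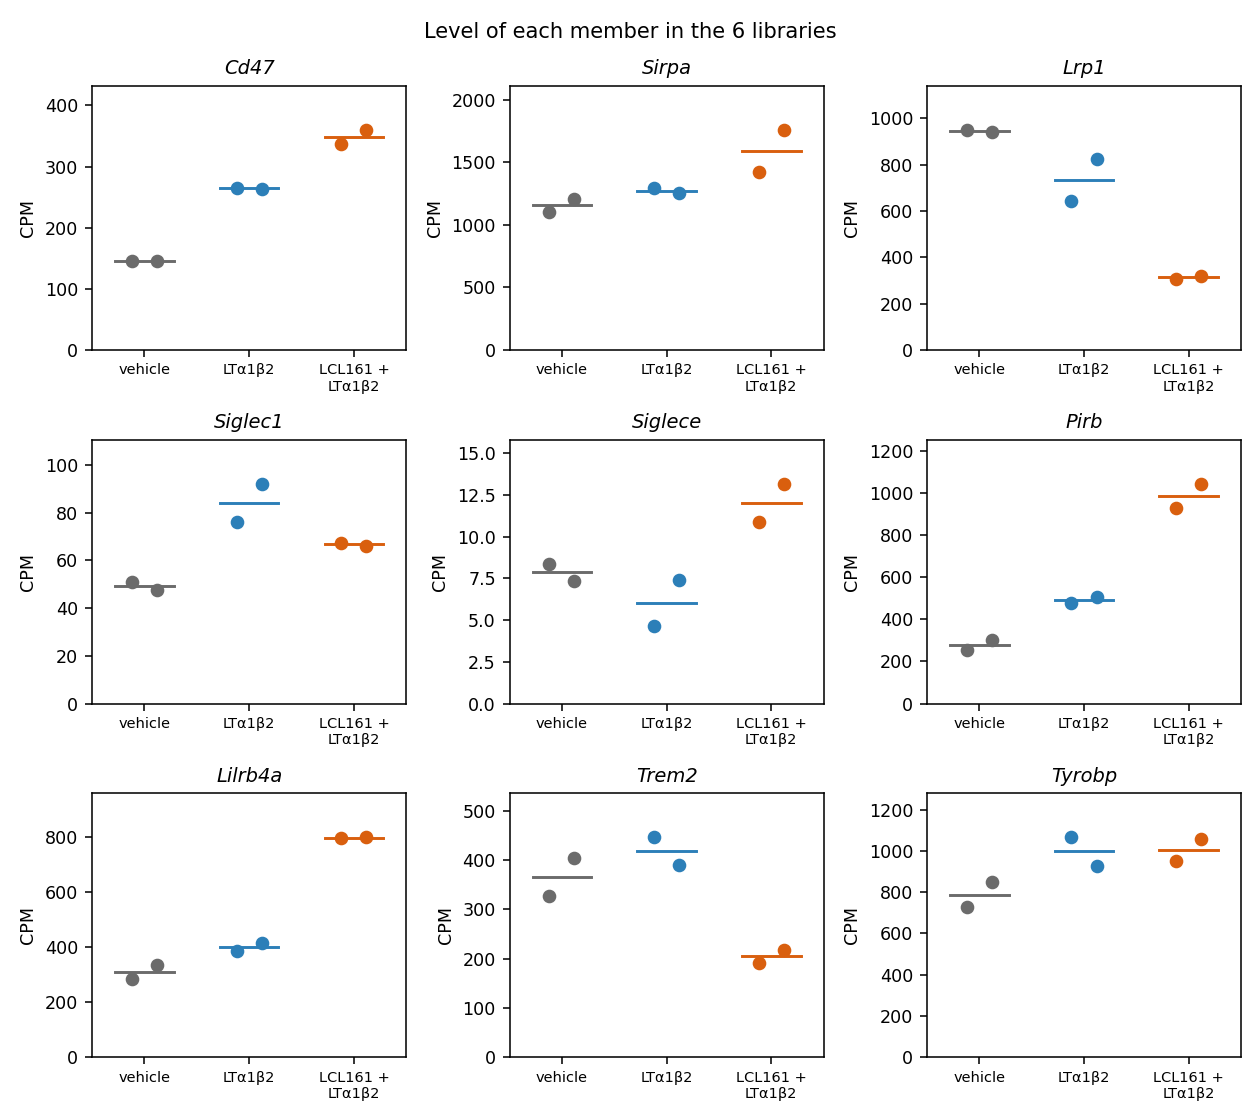
CPM (library-scaled counts, linear axes from 0, a separate scale per gene) of the 9 members in each of the 6 libraries; points are libraries and bars are the means of the 2 libraries of a group. Cd47, Pirb and Lilrb4a step upward from vehicle to LTα1β2 to both agents, Lrp1 steps downward, Trem2 is lowest with both agents, and Siglec1 is highest after LTα1β2 alone.

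**Figure D2:**
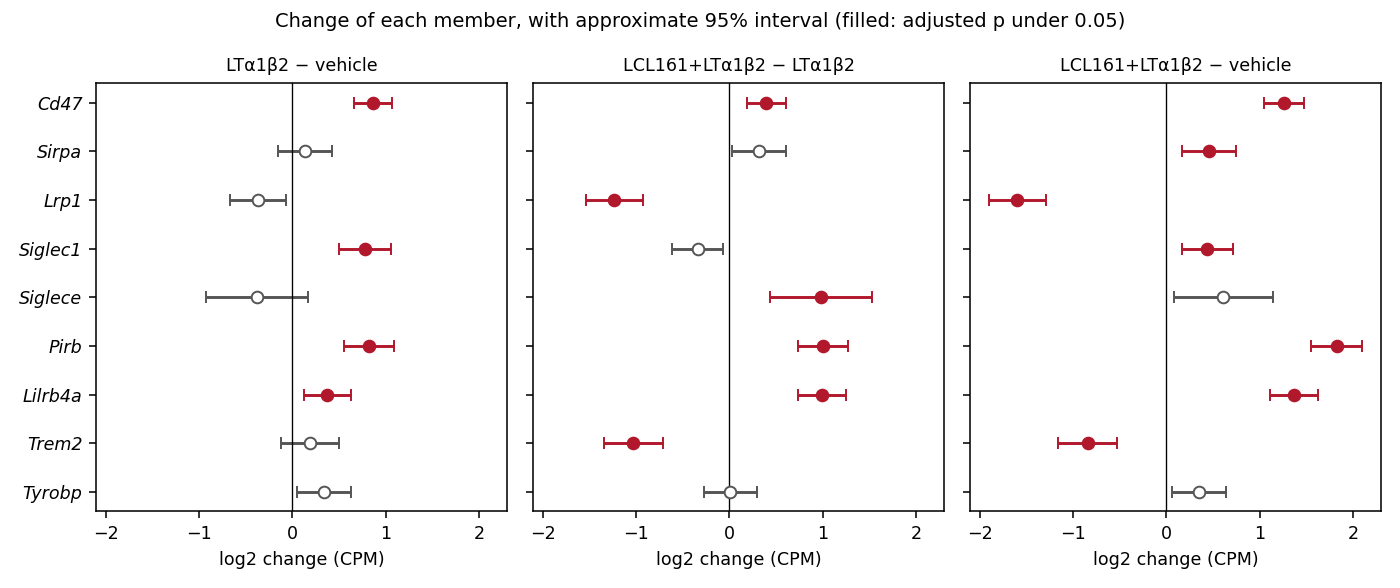
Log2 change of each member in the 3 comparisons, with approximate 95% intervals from the edgeR fit (filled red points: adjusted p under 0.05; open points: not called; vertical line: no change). Lrp1 and Trem2 lie left of 0 in both comparisons that involve LCL161, and Pirb lies farthest to the right against vehicle (1.83).

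Cd47 encodes the ligand that tells phagocytes not to engulf, and lies on GRCm38 chromosome 16 at 49800533 to 49915010 in the GENCODE M21 annotation. It had 145 and 145 CPM in the vehicle libraries, 265 and 264 CPM after LTα1β2 and 336 and 360.0 CPM with both agents. The 3 groups did not overlap. Cd47 rose 1.82-fold with LTα1β2 (log2 change 0.86, SE 0.089, edgeR adjusted p = 0.000545) and 2.40-fold with both agents against vehicle (1.26, SE 0.09, adjusted p = 2.67e-05). The further rise with LCL161 on top of the ligand was 1.32-fold (0.40, SE 0.089, edgeR adjusted p = 0.0154). That smaller step was not called without LTα1β2 replicate 1 (edgeR adjusted p = 0.104) or 2 (0.133), without replicate 2 of both agents (0.126), or with no filter beyond 1 read (0.181), in a range of 0.000783 to 0.181 over 16 alternative settings.

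Sirpa, the receptor for CD47 on macrophages, lies on chromosome 2 at 129592835 to 129632228. It had 1105 and 1203 CPM with vehicle, 1289 and 1253 CPM after LTα1β2 and 1418 and 1758 CPM with both agents. Each group lay above the one before it. With LTα1β2 alone the log2 change of 0.14 did not pass the test (95% interval -0.15 to 0.43, edgeR adjusted p = 0.478). With both agents Sirpa stood 1.38-fold above vehicle (0.46, SE 0.12, edgeR adjusted p = 0.0217), and the step over LTα1β2 did not pass (0.32, adjusted p = 0.0957). The call against vehicle was lost without vehicle replicate 1 (edgeR adjusted p = 0.132) or 2 (0.0544), without LTα1β2 replicate 2 (0.0603), without replicate 2 of both agents (0.226) and under total-count scaling (0.259), in a range of 0.00209 to 0.259.

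Lrp1, the large endocytic receptor that reads calreticulin as a signal to engulf, showed the largest decrease among the members. The gene lies on chromosome 10 at 127538161 to 127621148. Its level was 951 and 943 CPM with vehicle, 644 and 826 CPM after LTα1β2 and 305 and 321 CPM with both agents. All 3 groups were apart, and the LTα1β2 libraries were the most widely spaced. Lrp1 fell 3.03-fold with both agents against vehicle (log2 change -1.60, SE 0.13, edgeR adjusted p = 5.65e-05) and 2.35-fold against LTα1β2 (-1.23, SE 0.13, adjusted p = 0.000553). With LTα1β2 alone the change of -0.37 did not pass (95% interval -0.66 to -0.068, edgeR adjusted p = 0.0788). It passed without LTα1β2 replicate 2 (log2 change -0.57, edgeR adjusted p = 0.0346), with DESeq2 (0.0495), with limma voom (0.0498) and under total-count scaling (0.0132), in a range of 0.0132 to 0.598 over 16 settings.

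Lrp1 is known from fibroblasts as well as macrophages, and the stromal marker sum moved in the same direction. That sum went from 12101 and 8480 CPM with vehicle to 962 and 998 CPM with both agents. Within the LTα1β2 group the library with more stromal signal (4694 against 3369 CPM) also had more Lrp1 (826 against 644 CPM). Within vehicle, sums of 12101 and 8480 CPM went with Lrp1 levels of 951 and 943 CPM. The part of stromal cells in the decrease of Lrp1 was not tested.

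Promoter entries, from RefSeq on GRCm38.p6, were matched for 5 of the 9 members: Cd47, Lrp1, Siglece, Pirb and Trem2. The 250 bases before the start are shown, 5′ to 3′ on the gene's strand, for Lrp1 and Trem2, which fell when LCL161 was added, and for Pirb and Siglece, which rose. Capitals mark matches on either strand to the interferon-gamma element GAS (TTCNNNGAA) or to the core site of the myeloid factor PU.1 (GAGGAA, or TTCCTC on the other strand), none of which overlap.
Lrp1, chr10:127621149-127621398, minus strand: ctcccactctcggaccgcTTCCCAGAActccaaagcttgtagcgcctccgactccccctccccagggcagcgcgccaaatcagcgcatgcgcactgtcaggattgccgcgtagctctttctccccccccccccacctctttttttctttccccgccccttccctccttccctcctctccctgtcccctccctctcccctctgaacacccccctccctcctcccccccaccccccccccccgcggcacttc
Trem2, chr17:48346151-48346400, plus strand: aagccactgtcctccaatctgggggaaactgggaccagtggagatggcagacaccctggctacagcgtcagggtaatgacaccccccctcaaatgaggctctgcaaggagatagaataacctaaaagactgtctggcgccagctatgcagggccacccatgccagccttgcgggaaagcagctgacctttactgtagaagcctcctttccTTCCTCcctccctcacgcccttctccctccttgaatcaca
Pirb, chr7:3720383-3720632, minus strand: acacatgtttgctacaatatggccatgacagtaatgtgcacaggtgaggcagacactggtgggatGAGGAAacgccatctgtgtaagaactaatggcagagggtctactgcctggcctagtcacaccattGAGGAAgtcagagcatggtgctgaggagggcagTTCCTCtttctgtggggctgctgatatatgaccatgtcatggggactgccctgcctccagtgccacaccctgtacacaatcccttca
Siglece, chr7:43660162-43660411, minus strand: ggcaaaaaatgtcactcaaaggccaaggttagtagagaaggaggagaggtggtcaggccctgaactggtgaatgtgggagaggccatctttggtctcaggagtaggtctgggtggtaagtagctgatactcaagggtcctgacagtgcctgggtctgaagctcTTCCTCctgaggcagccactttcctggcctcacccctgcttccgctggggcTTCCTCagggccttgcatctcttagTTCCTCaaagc
The Lrp1 window holds 1 GAS match, 232 to 224 bases before the start, and no PU.1 core. Pirb and Siglece have 3 PU.1 cores each and Trem2 has 1. Among 32851 promoter windows of this length, 23.3% hold at least 1 PU.1 core, and the share with 3 was not counted. At least 1 GAS match is in 7.02%. The core of the interferon-stimulated response element is in 2.98% and in none of these 4 windows. Cd47 also rose when LCL161 was added, and its 2 overlapping windows, which are not shown, hold none of the 3 motifs. A match describes letters and is not a measured binding site.

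The sialic acid receptors moved in different ways. Siglec1 (CD169), on chromosome 2 at 131069220 to 131086765, had 50.8 and 47.3 CPM with vehicle, 76.2 and 92.1 CPM after LTα1β2 and 67.3 and 65.9 CPM with both agents. Its highest level was in the LTα1β2 group, and the groups did not overlap. It rose 1.71-fold with LTα1β2 (log2 change 0.78, SE 0.12, edgeR adjusted p = 0.00328) and stood 1.36-fold above vehicle with both agents (0.44, SE 0.12, adjusted p = 0.0212). The difference of -0.34 between both agents and LTα1β2 did not pass (95% interval -0.61 to -0.065, edgeR adjusted p = 0.0712). It passed without LTα1β2 replicate 1 (edgeR adjusted p = 0.0311), under total-count scaling (0.0303) and with no filter beyond 1 read (0.0088), in a range of 0.0088 to 0.317. The call of both agents against vehicle was lost without vehicle replicate 1 (edgeR adjusted p = 0.102) or 2 (0.181), without replicate 1 (0.0702) or 2 (0.0867) of both agents, and under total-count scaling (0.434), in a range of 0.0109 to 0.434.

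Siglece, an ITIM receptor of mouse myeloid cells, lies on chromosome 7 at 43651070 to 43660161 and was the least abundant member, with 73 to 181 reads per library. The levels were 8.38 and 7.35 CPM with vehicle, 4.66 and 7.38 CPM after LTα1β2 and 10.9 and 13.2 CPM with both agents. Vehicle and LTα1β2 overlapped, and both libraries with LCL161 lay above all others. Siglece rose 1.98-fold when LCL161 was added to LTα1β2 (log2 change 0.99, SE 0.23, edgeR adjusted p = 0.0197). This call was lost without LTα1β2 replicate 1 (edgeR adjusted p = 0.0848) and without replicate 2 of both agents (0.0809), in a range of 0.000748 to 0.0848. With LTα1β2 alone the change of -0.38 did not pass (95% interval -0.92 to 0.17, edgeR adjusted p = 0.298). Against vehicle the change of 0.61 with both agents did not pass either (95% interval 0.079 to 1.14, edgeR adjusted p = 0.0677). It passed without LTα1β2 replicate 1 (edgeR adjusted p = 0.0321), with only the groups compared (0.0366), with a filter of at least 1 CPM in 2 libraries (0.0476) and with none beyond 1 read (0.0388), in a range of 0.0321 to 0.316.

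The ITIM receptors Pirb and Lilrb4a rose at both steps. PIR-B, encoded by Pirb on chromosome 7 at 3711409 to 3720391, binds MHC class I. Its level was 257 and 300.5 CPM with vehicle, 479 and 507 CPM after LTα1β2 and 929.7 and 1047 CPM with both agents, so that the 3 groups were well apart. Pirb rose 1.77-fold with LTα1β2 (log2 change 0.82, SE 0.12, edgeR adjusted p = 0.00234) and 2.00-fold more with LCL161 (SE 0.12 on the log2 scale, adjusted p = 0.000827). Against vehicle the rise was 3.55-fold (1.83, SE 0.12, edgeR adjusted p = 1.68e-05), the largest increase among the members.

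Lilrb4a, on chromosome 10 at 51490956 to 51496611, encodes the inhibitory receptor gp49B. It had 283 and 335 CPM with vehicle, 387 and 415 CPM after LTα1β2 and 795 and 799 CPM with both agents. The groups did not overlap, and the step with LCL161 was the larger one. Lilrb4a rose 1.99-fold when LCL161 was added (log2 change 0.99, SE 0.11, edgeR adjusted p = 0.000692) and 2.58-fold against vehicle (1.37, SE 0.11, adjusted p = 5.36e-05). The step from vehicle to LTα1β2 was 1.30-fold (0.38, SE 0.11, edgeR adjusted p = 0.0434). It was not called without vehicle replicate 1 (edgeR adjusted p = 0.242), LTα1β2 replicate 1 (0.0741) or 2 (0.225), or replicate 1 (0.0545) or 2 (0.0604) of both agents, nor under total-count scaling (0.2), in a range of 0.00193 to 0.242.

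Both genes share sequence with close relatives. Of the distinct 50-base words in Pirb transcripts 34% also occur in other genes' transcripts, 17.7% in Gm14548 and 16.8% in Pira2. For Lilrb4a the share is 46.7%, with 33.7% in Gm49339, whose exons overlap it on the same strand, and 26.1% in Lilr4b. Pirb had fractional counts in all 6 libraries, so the division of reads between relatives is uncertain. Reads of each family were therefore also summed, a check chosen after the data were seen. Pirb with Pira2, Lilra6 and Gm14548 had 329 and 376 CPM with vehicle, 572 and 596 CPM after LTα1β2 and 1076 and 1211 CPM with both agents. Lilrb4a with Lilr4b and Gm49339 had 807 and 945, 1159 and 1226 and 2199 and 2209 CPM in the same order. Both sums rose at both steps, as the single genes did: against vehicle the log2 change with both agents was 1.70 for the Pirb family (edgeR adjusted p = 1.92e-05) and 1.33 for the Lilrb4a family (adjusted p = 6.17e-05). Pira2, an activating receptor, was also called higher against vehicle (0.81, edgeR adjusted p = 0.000754). Its counts were fractional in all 6 libraries as well, so its rise is not separate from that of Pirb and is uncertain. Sirpa, Lrp1, Siglece, Trem2 and Tyrobp shared none of their 50-base words with other genes, and Cd47 and Siglec1 shared 0.615% and 1.33%.

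Trem2, the lipid-sensing receptor of macrophages and microglia, lies on chromosome 17 at 48346401 to 48354147. Its level was 328 and 405 CPM with vehicle, 446 and 389 CPM after LTα1β2 and 192 and 218 CPM with both agents. Vehicle and LTα1β2 overlapped, and both libraries that received LCL161 lay below the other 4. Trem2 fell 2.04-fold when LCL161 was added (log2 change -1.03, SE 0.14, edgeR adjusted p = 0.00159) and 1.79-fold against vehicle (-0.84, SE 0.14, adjusted p = 0.00204), and was called in both under all 16 alternative settings. With LTα1β2 alone the change of 0.19 did not pass (95% interval -0.13 to 0.50, edgeR adjusted p = 0.37).

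Tyrobp, on chromosome 7 at 30413760 to 30417585, encodes DAP12, through which TREM2 signals. It had 727 and 847 CPM with vehicle, 1065 and 928 CPM after LTα1β2 and 953 and 1055 CPM with both agents. Both treated groups lay above vehicle and overlapped each other. Between them the log2 change was 0.010, with a 95% interval of -0.27 to 0.30 (edgeR adjusted p = 0.959). The changes against vehicle did not pass, at 0.34 with LTα1β2 (edgeR adjusted p = 0.0859) and 0.35 with both agents (adjusted p = 0.0548). The latter passed with DESeq2 (adjusted p = 0.0384), limma voom (0.0369), a robust edgeR fit (0.0498) and a filter of at least 1 CPM in 2 libraries (0.0323), in a range of 0.0323 to 0.775. The former passed in edgeR with no filter beyond 1 read (adjusted p = 0.00305), in a range of 0.00305 to 0.369.

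Levels of different genes were compared per kilobase of the longest annotated coding transcript. Tyrobp was the most abundant member in every group, with 1396 ± 151 CPM per kb in vehicle (SD, n = 2), 1767 ± 172 after LTα1β2 and 1780 ± 129 with both agents. In vehicle Trem2 (337 ± 50.3 CPM per kb) and Sirpa (289.8 ± 17.4) followed with overlapping libraries, and then came Lilrb4a (224 ± 26.4), Pirb (72.9 ± 8.09), Lrp1 (63.6 ± 0.354), Cd47 (27.6 ± 0.0715), Siglec1 (7.69 ± 0.386) and Siglece (4.25 ± 0.393). After LTα1β2 the order was the same except that Cd47 (50.3 ± 0.151 CPM per kb) and Lrp1 (49.4 ± 8.65) stood level, with overlapping libraries. With both agents Lilrb4a (577 ± 1.68 CPM per kb), Sirpa (399 ± 60.3) and Pirb (258 ± 21.7) all stood above Trem2 (188 ± 17.1), followed by Cd47 (66.3 ± 3.2), Lrp1 (21 ± 0.747), Siglec1 (10.4 ± 0.165) and Siglece (6.5 ± 0.88), with no overlap between neighbours. The order is approximate, since coding transcripts of Lrp1 are annotated from 2097 to 14888 bases and those of Cd47 from 1032 to 5250. Those of Sirpa run from 677 to 3982 bases and those of Siglec1 from 1861 to 6387. The places of Pirb and Lilrb4a also depend on how reads were divided with their relatives.

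Ratios within a library do not depend on how libraries are scaled to each other, but they do depend on the mixture of cells. The stromal marker sum dropped from 12101 and 8480 CPM with vehicle to 962 and 998 CPM with both agents. The part of stromal cells in these ratios was not tested. The ratio of Lrp1 to Cd47 was 2.32 and 2.29 per kb with vehicle, 0.858 and 1.1 after LTα1β2 and 0.32 and 0.314 with both agents. The ratio of Sirpa to Cd47 was 10.1 and 10.9, 6.42 and 6.27, and 5.56 and 6.44 in the same order, lower in both treated groups, which overlapped. The ratio of Trem2 to its adaptor Tyrobp was 0.234 and 0.248, 0.217 and 0.217, and 0.104 and 0.107. Trem2 was thus lower relative to Tyrobp in both libraries with LCL161, while Pirb was higher: its ratio to Tyrobp was 0.0521 and 0.0523, 0.0664 and 0.0806, and 0.144 and 0.146.

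**Figure D3:**
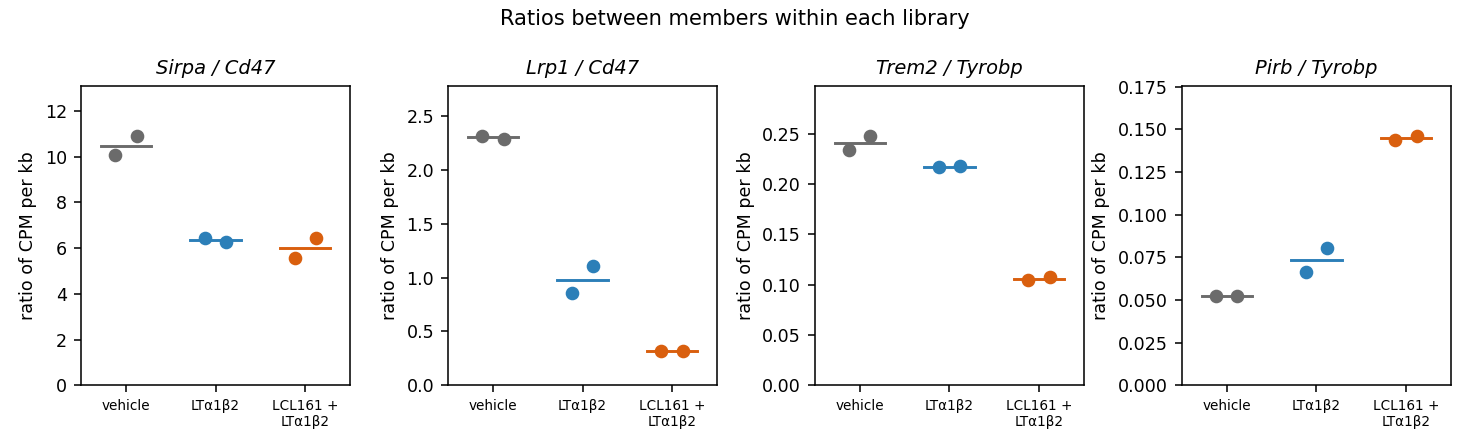
Ratio of CPM per kb of coding transcript between members within each of the 6 libraries (points: libraries; bars: means of 2; linear axes from 0). Lrp1 over Cd47 descends from 2.32 and 2.29 with vehicle to 0.32 and 0.314 with both agents, and Pirb over Tyrobp ascends from 0.0521 and 0.0523 to 0.144 and 0.146.

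Other genes of the same pathways were counted in lists, each read beside 18.4% of all genes higher and 21.1% lower with both agents against vehicle. Among 16 other inhibitory receptors 7 rose and 5 fell in that comparison (median log2 change -0.17), so the list did not move in 1 direction. Clec12a, an ITIM receptor for uric acid crystals, went from 103 ± 0.209 to 539 ± 5.4 CPM (SD, n = 2) and Pilra from 44.1 ± 0.307 to 237 ± 14.7 CPM. Siglecg, a relative of Siglece that binds CD24, went down from 28.2 ± 2.06 to 2.95 ± 0.163 CPM. The collagen receptor Lair1 rose with LTα1β2 (1.89, SE 0.11, edgeR adjusted p = 2.84e-05), and its change of -0.25 on adding LCL161 did not pass (adjusted p = 0.118).

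The phosphatases and adaptors that ITIMs recruit split. Of 8, Ptpn6 rose and Dok2, Inppl1, Inpp5d and Ptpn11 fell with both agents against vehicle (median -0.29). Ptpn6, which encodes SHP-1, had 244 ± 24.3 CPM with vehicle, 589.6 ± 13.1 after LTα1β2 and 701 ± 57.1 with both agents (log2 change 1.52 against vehicle, SE 0.11, edgeR adjusted p = 3.21e-05). Ptpn11, which encodes SHP-2, had 60.6 ± 0.143, 62.5 ± 3.43 and 48.1 ± 1.05 CPM in the same order (-0.33, edgeR adjusted p = 0.0294). Its call was lost when any library except LTα1β2 replicate 2 was left out. Inpp5d, the lipid phosphatase SHIP-1, fell when LCL161 was added to LTα1β2, from 382 ± 0.281 to 209 ± 2.96 CPM (-0.87, edgeR adjusted p = 0.000956).

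On the activating side, 13 of 18 ITAM adaptors, kinases and effectors rose with both agents against vehicle and Fyn fell (median 0.78, beside 0.047 for all genes). The call of Fyn was lost when either vehicle library, LTα1β2 replicate 1 or replicate 1 of both agents was left out, and 2 genes fell without replicate 2 of both agents. Fyn was named after its values were seen. Syk, the kinase recruited by ITAMs, had 229 ± 19.4 CPM with vehicle, 287 ± 12.4 after LTα1β2 and 681 ± 0.393 with both agents (log2 change 1.57, SE 0.10, edgeR adjusted p = 1.62e-05). Fcer1g, the Fc receptor gamma chain, rose by 1.61 (SE 0.11, edgeR adjusted p = 2.27e-05), whereas the member Tyrobp, another ITAM-bearing adaptor, did not pass in any comparison.

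Of 15 activating receptors tested that pair with these adaptors, 8 rose and 4 fell against vehicle (median 0.75). Clec5a, which signals through DAP12, had 29.7 ± 0.676 CPM with vehicle, 51.1 ± 0.201 after LTα1β2 and 363 ± 2.39 with both agents (3.61, SE 0.096, edgeR adjusted p = 4.33e-07). Pilrb1 and Pilrb2, relatives of Pilra that activate, rose by 2.59 and 2.22 on the log2 scale. Pilra and Pilrb2 had fractional counts in all 6 libraries and Pilrb1 in 5 of 6, so the division of reads among these relatives, and with it each rise, is uncertain. Trem1, an inflammatory relative of Trem2 that also pairs with DAP12, fell with LTα1β2 (-1.52, edgeR adjusted p = 0.00141).

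Ligands, partners and processing enzymes of CD47 and LRP1 split as well, with 5 of 18 tested higher and 7 lower against vehicle (median -0.12). Slamf7, a receptor linked to engulfment of haematopoietic cells, rose from 66.5 ± 7.52 to 622 ± 34.8 CPM, the sheddase gene Adam17 from 276 ± 12.6 to 746 ± 10 CPM, and Calr, calreticulin, from 693 ± 33 to 1203 ± 57.7 CPM. Thbs1, thrombospondin 1, a secreted CD47 ligand, dropped to 1270 ± 84.4 CPM with both agents from 8355 ± 1161 CPM (-2.72, edgeR adjusted p = 1.17e-05). Stromal cells also make Thbs1, and their marker sum dropped from 12101 and 8480 to 962 and 998 CPM; their part in its decrease was not tested. Qpctl, whose enzyme modifies CD47 so that SIRPα can bind, had 26.9 ± 0.822 CPM with vehicle and 22.4 ± 3.78 with both agents and did not pass (edgeR adjusted p = 0.177). Calr and Qpctl were named for their roles after their values were seen.

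Among 17 genes of lipid handling, lysosomes and the cell surface that are linked to TREM2, 4 rose (Cst7, Itgax, Clec7a and Lpl) and 6 fell (Spp1 and Fabp5 among them) with both agents against vehicle (median 0.049). Of those that rose, Lpl encodes a lipase, whereas Cst7 encodes a cystatin, Itgax an integrin and Clec7a a receptor for beta-glucan, so the count does not describe lipid handling. Cst7 went from 7 and 4 reads with vehicle to 312 and 356 after LTα1β2 and 3023 and 3062 with both agents. Apoe, a ligand of TREM2 named for that role after its values were seen, had 16911 ± 3675 CPM with vehicle and 17497 ± 2341 with both agents and did not pass (edgeR adjusted p = 0.841).

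Enzymes that make, attach or remove sialic acid, the ligand of Siglecs, split too: 4 of 17 rose, among them Neu1, a sialidase that removes it, and 5 fell against vehicle (median -0.25), and 8 fell without replicate 2 of both agents. St6gal1 had 61.8 ± 7.96 CPM with vehicle and 5.37 ± 0.556 with both agents (-3.52, edgeR adjusted p = 5.11e-06), and St3gal5 had 174 ± 22.8 and 447 ± 32.7 CPM. Neu1 was named for its role after its values were seen. Of 6 PIR-B ligands tested, H2-K1, H2-D1, B2m and Mag rose and Angptl2 fell against vehicle, and 2 fell without replicate 2 of both agents. The class I chain gene H2-K1 had 648 ± 47.1, 3109 ± 88 and 4874 ± 521 CPM in vehicle, LTα1β2 and both agents, and Angptl2 had 501 ± 4.22, 288 ± 19.5 and 80.3 ± 3.91 CPM. Counts of H2-K1 and H2-D1 were fractional in all 6 libraries, so how their reads were divided, and with it the size of each rise, is uncertain. Mag had only 31 to 113 reads per library. The stromal marker sum also dropped, from 12101 and 8480 CPM with vehicle to 962 and 998 CPM with both agents. The part of stromal cells in the decrease of Angptl2 was not tested.

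**Figure D4:**
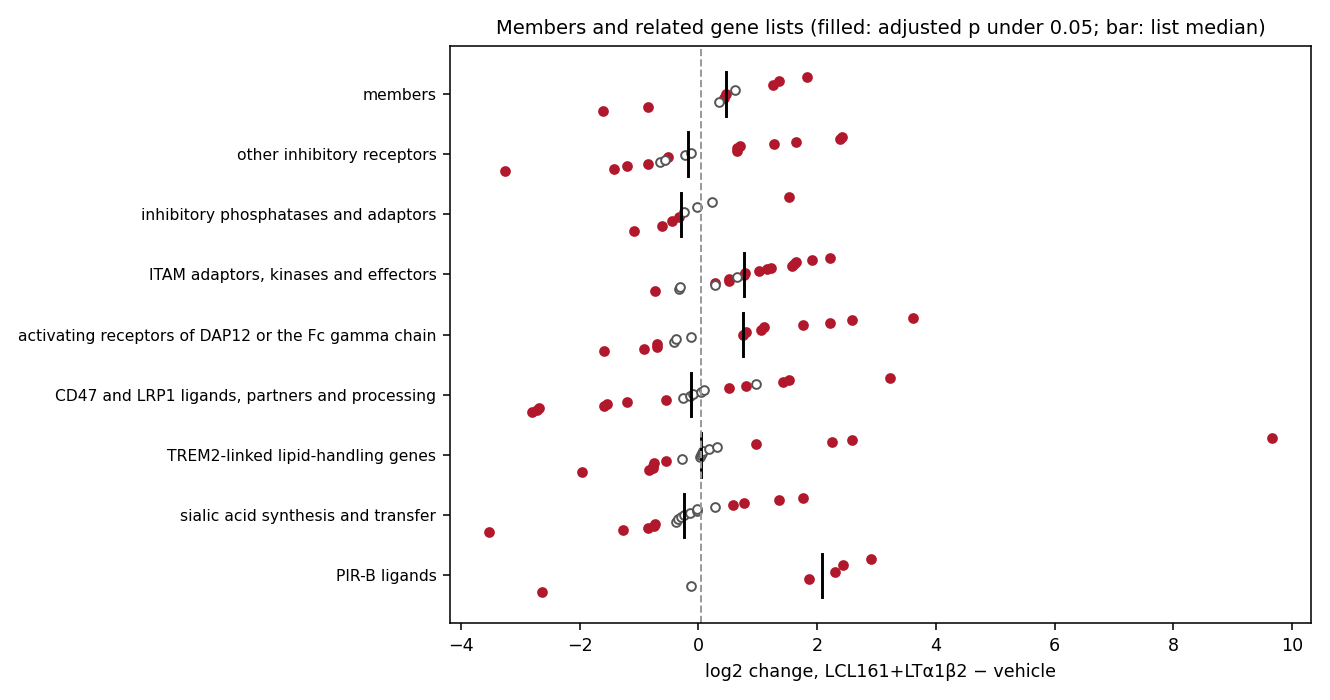
Log2 change between both agents and vehicle for the members and 8 related gene lists, each point 1 gene (filled red: adjusted p under 0.05; open: not called), black bars the list medians and the dashed line the median of all genes (0.047). ITAM adaptors and kinases have 13 of 18 filled points to the right of 0, while inhibitory phosphatases have 4 filled points to the left and Ptpn6 alone to the right.

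The genes with the pattern most like Pirb, by Euclidean distance between centred log2 CPM profiles over the 6 libraries among 10132 genes with a mean of at least 5 CPM, were Ctsz (distance 0.127), Sema4d (0.129) and Plcl2 (0.2). The cathepsin gene Ctsz had means of 909, 1506 and 3132 CPM in vehicle, LTα1β2 and both agents. The genes nearest to Lrp1 were Ece1 (0.167), Zfp36l1 (0.189) and Rcn1 (0.194), and Ece1 had means of 117, 88.1 and 36.9 CPM. These distances describe 6 libraries in 3 groups and carry no test.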

How the data were processed

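Total RNA of the treated macrophages went into Illumina libraries, per the labels' protocols. The authors deposited 1 table of unnormalised expected counts per gene symbol for 6 libraries, in which 66.6% of the non-zero values are whole. The submitters' processing notes name STAR 2.7.3a, DESeq2 1.26.0 and the build GRCm38. The sources used here do not name the counting program, annotation, strand setting or any selection of RNA. Columns were matched to groups through sample titles.

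Counts were rounded. filterByExpr kept 18812 genes, and all 6 libraries entered 1 model in edgeR 4.0.16 (R 4.3.3; TMM, glmQLFit, glmQLFTest, two-sided, Benjamini-Hochberg). The common biological variation was 13.6%, on 3 residual and 4.59 prior degrees of freedom. Each SE was taken as |log2 change| over the root of F, and 95% intervals from it are approximate. Replicates differed beyond counting error (chi-square per degree of freedom 8.90 to 16.9). The procedure was also run on simulated counts in which far fewer genes changed than were called here. Only LTα1β2 against vehicle was scored in that run, so it does not cover the comparisons with LCL161.

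Members and gene lists were chosen with earlier results of these data known. Genes named from a list were taken from the 3 called with the smallest p per comparison, or from all where at most 5 were called. Not every such gene is named. Genes named for their role are marked. The 3 genes nearest in pattern were named for the members with the largest rise and fall. Positions, lengths and shared 50-base words come from GENCODE M21. The 16 alternative settings were other scaling (relative log expression, total counts), DESeq2 1.42.0, limma 3.58.1 voom, other filters on low counts, newer and robust edgeR fits, a fit to the compared groups, a replicate block and each library left out. Summed paralog reads were added after the data were seen.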

Additional observations from a re-analysis of the deposited data

How the results depend on the processing

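The number of members called stayed within 1.5 times under the 16 settings: 3 to 5 for LTα1β2 against vehicle (4 as reported), 4 to 7 for both agents against LTα1β2 (6) and 5 to 9 for both agents against vehicle (7). With a library left out it was 3 to 4, 4 to 6 and 5 to 8. Of 438 recomputed member values, 393 kept their direction and side of the threshold, 22 lost a call, 16 gained one and 7 changed sign, none of which was called in either fit. Sirpa after LTα1β2 went from 0.14 to -0.049 (log2) under total-count scaling. Tyrobp between both agents and LTα1β2 went from 0.010 to -0.11 under total-count scaling and -0.13 with no filter beyond 1 read, and ran from -0.13 to 0.064 with a library left out; the cause was not tested.

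Total-count scaling moved the median log2 change of all genes from -0.039 to -0.23, from 0.0045 to -0.12 and from 0.047 to -0.26 in the 3 comparisons, and the share of calls that were higher from 54.8% to 33%, from 41.2% to 28% and from 46.6% to 24.6%. Calls over all genes went from 4401 to 1930, 2807, 2457 and 2499 without vehicle replicate 1 or 2 or LTα1β2 replicate 1 or 2, from 4832 to 2332 without LTα1β2 replicate 2, and from 7431 to 4885 without vehicle replicate 1. A fit with a replicate block called 4, 6 and 7 members, as without it. Deviations of same-numbered libraries correlated at -0.26, 0.18 and -0.0072 between the groups, so the numbers were not treated as pairing them, and whether any share a culture or day is not known. Depth limits Siglece most, at 73 to 181 reads per library.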
